A study of Mus musculus with 8 samples.

Results

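The 10 genes described here, Nr4a1, Nr4a2, Nr4a3, Egr1, Egr2, Egr3, Nfatc1, Nfatc2, Nfatc3, and Rcan1, encode transcription factors and 1 inhibitor that act downstream of the antigen receptor of T cells. They were taken from a fixed list by the gene name given in the array files and are 10 of 29924 named genes. Together they have 15 of the 39429 probes of the array. A gene is represented by its probe of highest mean log2 intensity, and any other probe serves as a check. For a test, both arrays of some cell type had to show the probe well above background by the flag of the scanning software. This was the case for 8 of the 10 genes and for 15764 of all genes. Nr4a3 and Egr3 did not pass.

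When the T cell receptor is engaged, calcium enters the cell and activates the phosphatase calcineurin, which removes phosphate groups from NFAT proteins and lets them move into the nucleus. In parallel, MAP kinase signals act on serum response factor and its partners at the promoters of the EGR zinc finger genes, and calcium signals switch on the NR4A orphan nuclear receptors. Expression of Nr4a1 is widely used as a readout of recent receptor signals in T cells. Rcan1 binds and inhibits calcineurin and is itself induced by NFAT from an internal promoter, so that it forms a feedback loop. In follicular T cells, EGR proteins have been linked to Bcl6 expression and NFAT proteins to expression of cytokines and of CXCR5.

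CD4 T cells were sorted from peripheral lymph nodes (pLN) of mice immunized s.c. with KLH in alum, at d12 and d25 p.i. The mice were of strain B6.Cg-Foxp3<tm1Mal>, aged 8 to 14 weeks, in which EGFP marks every Foxp3 expressing cell, and all groups share this allele and the immunization. Naïve CD4 T cells were GFP- PD1lo GL7-, Treg cells GFP+ PD1lo GL7-, TFH cells GFP- PD1hi GL7+, and TFR cells GFP+ PD1hi GL7+/-, where PD1 and GL7 are surface markers of follicular T cells and TFH and TFR denote follicular helper and follicular regulatory T cells. Each of the 8 one-color arrays received RNA from a pool of 8 to 15 mice of mixed gender (25 ng), so that each cell type has 2 arrays, 1 per day. P-values therefore measure only the spread between pools of the 2 days. The naïve gate is defined by low PD1 and GL7 and does not exclude other PD1lo cells, and a pool averages over its animals.

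Between 18261 and 19867 probes per array were well above background, and none had a saturated spot. All d12 arrays were on 1 slide. At d25, the naïve and TFH arrays shared a second slide and the Treg and TFR arrays the third slide. A difference between TFH and naïve cells or between TFR and Treg cells at a given day is therefore within a slide. At d25, however, TFR and TFH cells were on different slides, as were Treg and naïve cells and Treg and TFH cells. The day d25 and slide cannot be told apart. The sort markers matched the labels. Summed over Foxp3, Il2ra, and Lrrc32, the 4 Foxp3+ samples reached 76512 to 108869 relative units (RU) and the 4 Foxp3- samples 354 to 692 RU. Summed over Bcl6, Cxcr5, and Pdcd1, the latter encoding the sort marker PD1, the follicular samples reached 146349 to 653782 RU and the others 9408 to 14396 RU. The sum of 6 B cell genes was 5443 to 10021 RU on 7 arrays and 15928 RU in TFH cells at d25, where Ms4a1 and Cd79a were at 2738 and 1822 RU, against 246 and 255 RU for TFH cells at d12. The sum of the CD8 genes Cd8a and Cd8b1 was 4208 to 5118 RU in naïve and Treg cells and 2110 to 3174 RU in follicular cells. The sum of 4 proliferation genes was 768 to 1905 RU in naïve and Treg cells, 4393 to 6474 RU in TFH cells, and 11096 to 12759 RU in TFR cells. The part of these markers in the results below was not tested. Since RNA of sorted cells was measured in bulk, fewer cells expressing a gene and less RNA per cell cannot be told apart.

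Upstream sequence was at hand for 7 of the 10 genes in 14 windows of 250 bases that end at an annotated transcript start (RefSeq, GRCm38.p6). 4 of these windows are shown because their genes rose in follicular cells and because they carry matches to elements through which calcium and MAP kinase signals are known to act. Matches are in capitals and were searched on both strands. The elements were the CRE core TGACG bound by CREB, the full CRE TGACGTCA that contains 2 overlapping cores, the EGR site GCGNGGGCG, the NFAT core GGAAAA, the AP-1 site TGANTCA, the NR4A monomer site AAAGGTCA, and the CArG box of serum response factor.
Nr4a1, chr15:101266596-101266845, plus strand: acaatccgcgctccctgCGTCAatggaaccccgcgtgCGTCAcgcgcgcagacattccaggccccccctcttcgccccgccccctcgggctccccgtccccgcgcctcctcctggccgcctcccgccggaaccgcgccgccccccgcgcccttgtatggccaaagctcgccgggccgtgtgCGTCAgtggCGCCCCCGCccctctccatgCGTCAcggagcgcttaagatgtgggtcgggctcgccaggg
Nr4a2, chr2:57124004-57124253, minus strand: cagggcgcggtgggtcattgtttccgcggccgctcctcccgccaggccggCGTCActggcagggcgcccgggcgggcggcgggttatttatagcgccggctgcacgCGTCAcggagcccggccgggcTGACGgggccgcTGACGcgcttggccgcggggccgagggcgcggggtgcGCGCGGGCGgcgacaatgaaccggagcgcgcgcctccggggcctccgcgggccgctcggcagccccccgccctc
Egr2, chr10:67537619-67537868, plus strand: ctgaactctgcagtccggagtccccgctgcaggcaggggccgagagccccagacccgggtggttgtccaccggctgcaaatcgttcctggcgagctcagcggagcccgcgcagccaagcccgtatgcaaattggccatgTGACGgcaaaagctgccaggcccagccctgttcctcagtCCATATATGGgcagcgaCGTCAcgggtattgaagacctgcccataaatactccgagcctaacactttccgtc
Rcan1 internal start, chr16:92400079-92400328, minus strand: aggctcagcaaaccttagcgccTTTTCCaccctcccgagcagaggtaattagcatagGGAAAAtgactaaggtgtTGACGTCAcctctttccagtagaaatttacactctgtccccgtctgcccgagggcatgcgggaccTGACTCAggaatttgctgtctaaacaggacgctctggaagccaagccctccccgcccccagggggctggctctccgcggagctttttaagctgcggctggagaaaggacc
The Nr4a1 window holds 4 CRE cores and an EGR site 60 to 52 bases before the start. The Nr4a2 window likewise holds 4 CRE cores and an EGR site, and that of Nr4a3 4 CRE cores. Among 32851 promoter windows of the same length, 17.8% had at least 1 CRE core, 0.137% had 4 or more, and 4.7% had an EGR site. The Egr2 window holds a CArG box 72 to 63 bases before the start between 2 CRE cores. A CArG box occurred in 1.47% of all windows. The internal Rcan1 window holds 2 NFAT cores, a full CRE, and an AP-1 site. Of all windows, 20.4%, 1.55%, and 6.75% had at least 1 match to these elements, in this order. Which start the measured Rcan1 RNA comes from was not tested. The window of the upstream Rcan1 start has no match to any of the 7 elements, and the same holds for both windows of Nfatc2, 1 of the 5 of Egr2, and 1 of the 2 of Nfatc3. The NR4A monomer site, found in 1.34% of all windows, was in none of the 14. A match of letters is a description and does not show that a factor binds there.

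**Figure D1:**
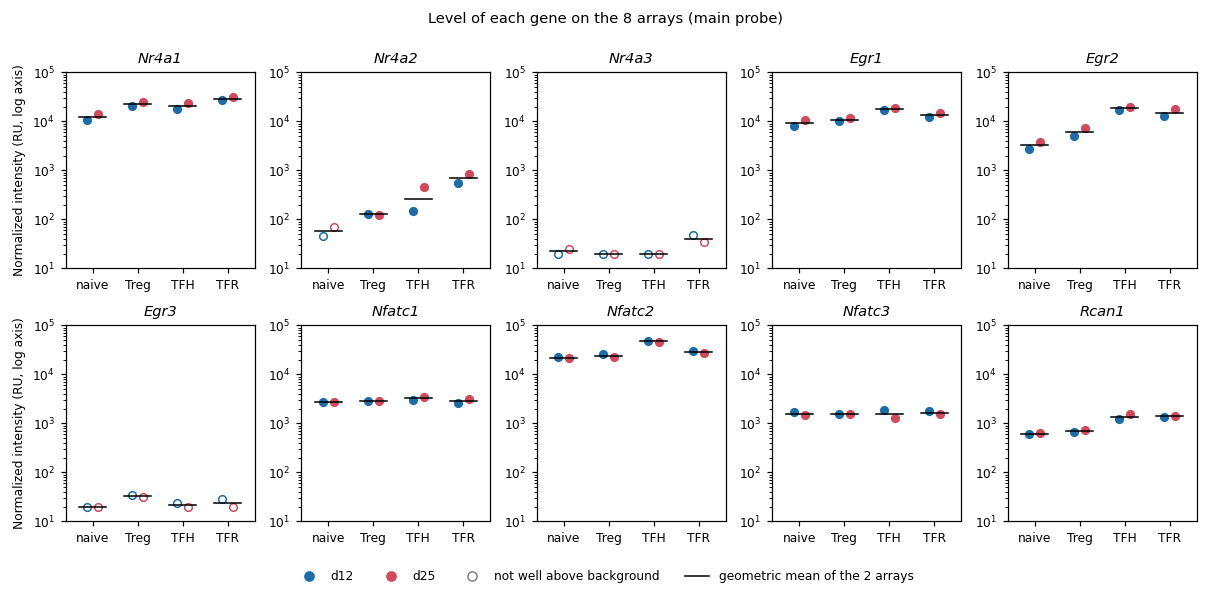
Normalized intensity (RU, log axis) of the main probe of each of the 10 genes in naïve CD4 T, Treg, TFH, and TFR cells, with 1 point per array (blue for d12, red for d25, open where not well above background) and a bar at the geometric mean of the 2 arrays. Egr2 lies between 2801 and 7233 RU in naïve and Treg cells and between 12627 and 19984 RU in follicular cells, whereas Egr3 and Nr4a3 stay at or below 47 RU on all arrays.

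TFH cells exceeded naïve CD4 T cells in 6 of the 8 tested genes and were below them in none (limma, Benjamini-Hochberg adjusted p below 0.05 over all 15764 genes). In this comparison 46.5% of all tested genes passed, 20.9% higher and 25.6% lower. In TFR against Treg cells, 4 of the 8 genes were higher and none was lower, beside 18.7% and 20.9% of all tested genes (39.6% in all). Egr2, Nr4a2, Rcan1, and Nr4a1 passed in both comparisons, Egr1 and Nfatc2 in the TFH comparison alone. Nfatc1 and Nfatc3 passed in neither by their main probes, on which these counts rest. Other probes of both genes did pass, upward for Nfatc1 and downward for Nfatc3, and are described below. All differences are log2 differences of intensity averaged over the 2 days and given with their standard error. They come from a model of cell type and day with 3 residual degrees of freedom, and the number of arrays limits the precision.

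Egr2, a zinc finger factor linked to T cell restraint and to follicular differentiation, is represented by 1 probe. That probe, at chr10:67004798-67004857 (build NCBI37), gave 2801 RU at d12 and 3817 RU at d25 in naïve cells, and in the same order 5035 and 7233 RU for Treg, 17493 and 19984 RU for TFH, and 12627 and 17792 RU for TFR cells. The follicular arrays were all above the others, and the ranges of TFH and TFR cells overlapped. Egr2 rose by 2.52 ± 0.11 in TFH over naïve cells (5.72-fold, adjusted p = 0.000241) and by 1.31 ± 0.11 in TFR over Treg cells (2.48-fold, adjusted p = 0.00214). The differences within a slide were 2.64 at d12 and 2.39 at d25 for TFH cells, and 1.33 and 1.3 for TFR cells. Treg cells exceeded naïve cells by 0.88 ± 0.11 (adjusted p = 0.0145), a call lost without any 1 of the naïve, Treg, or TFR arrays (0.81 to 0.96, adjusted p up to 0.117). TFR and TFH cells, neighbours at the upper end, differed by -0.32 ± 0.11 without passing (adjusted p = 0.113).

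Egr1, the prototype of this family and an immediate early gene in many cells, gave 8056 and 10644 RU for naïve, 10144 and 11796 RU for Treg, 16769 and 18639 RU for TFH, and 12434 and 14933 RU for TFR cells (chr18:35024395-35024454). The 2 TFH arrays were the highest of the 8. Egr1 rose by 0.93 ± 0.10 in TFH over naïve cells (1.91-fold, adjusted p = 0.00201). Of the neighbours in the order naïve, Treg, TFR, and TFH, none differed beyond the threshold, with 0.24 ± 0.10 between Treg and naïve cells (adjusted p = 0.197), 0.32 ± 0.10 between TFR and Treg cells (adjusted p = 0.0551), and -0.38 ± 0.10 between TFR and TFH cells (adjusted p = 0.0531). Both of the last differences passed under some of the alternatives. No array showed Egr3, at 20 to 34 RU, well above background, so that only a bound is known for it.

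Nr4a1 encodes NUR77, an orphan nuclear receptor induced early after receptor engagement. Its probe (chr15:101105071-101105130) gave 10526 and 13901 RU for naïve, 17771 and 24242 RU for TFH, 21004 and 24617 RU for Treg, and 27225 and 31314 RU for TFR cells. The ranges of TFH and Treg cells overlapped, and the naïve arrays lay below and the TFR arrays above all others. Against naïve cells it rose by 0.78 ± 0.10 in TFH cells (1.72-fold, adjusted p = 0.00414) and by 0.91 ± 0.10 in Treg cells (1.88-fold, adjusted p = 0.0103). Treg and TFH cells differed by 0.13 (95% confidence interval -0.13 to 0.4, adjusted p = 0.355), a comparison added after the levels were seen. TFR cells were highest at both days, by 0.36 ± 0.10 over Treg cells (adjusted p = 0.0462) and by 0.49 ± 0.10 over TFH cells (adjusted p = 0.0315). Both of these calls were close to the threshold. That over Treg cells was lost without any 1 of the naïve, Treg, or TFR arrays (0.28 to 0.44, adjusted p up to 0.227), and that over TFH cells without any 1 of the 8 arrays (0.41 to 0.58, adjusted p up to 0.185). With the slide as a block the difference of Nr4a1 between TFR and TFH cells was 0.597 and did not pass (adjusted p = 0.0571). The rise in Treg over naïve cells lost its call without any 1 of the 4 arrays of these cells (adjusted p up to 0.0914).

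Nr4a2, which encodes NURR1, is another early response gene of this family. Its main probe (chr2:56959637-56959696) gave 46 and 71 RU for naïve cells, in which it was not well above background. It gave 132 and 122 RU for Treg, 146 and 452 RU for TFH, and 551 and 862 RU for TFR cells. The TFR arrays were the highest, and the lower TFH array was close to the Treg arrays. Nr4a2 was at least 3.7-fold higher in TFH than in naïve cells, a bound that sets each naïve array no lower than its own lowest detected probe (fitted difference 2.17 ± 0.41, adjusted p = 0.0119). Other probes can miss the flag above that level, so that this and the later bounds are approximate. In TFR over Treg cells it rose by 2.44 ± 0.41 (5.44-fold, adjusted p = 0.0107). The difference between TFR and TFH cells, 1.424 ± 0.41, did not pass (adjusted p = 0.0683), but passed under normexp background correction (0.976, adjusted p = 0.0345), with an intensity trend of the variance (adjusted p = 0.0426), and without the TFH array of d25 (2.051, adjusted p = 0.0354). The second probe lies 1062 bases upstream in the gene and gave 100 and 118 RU for Treg, 236 and 355 RU for TFH, and 451 and 479 RU for TFR cells, with naïve cells at 46 and 20 RU again not well above background. By this probe Nr4a2 was at least 4.96-fold higher in TFH than in naïve cells (adjusted p of the fit = 0.00482). In TFR over Treg cells it rose by 2.09 ± 0.44 (adjusted p = 0.0213), a call lost without any 1 of the Treg or TFR arrays (adjusted p up to 0.123). Both probes ran in the same direction, beside 19.8% and 17.3% of all 20238 tested probes called higher in these comparisons. For the main probe of Nr4a2, the first call was lost without either naïve array (adjusted p up to 0.0657) and the second without either TFR array or the Treg array of d25 (adjusted p up to 0.0776). Nr4a3, which encodes NOR1, was at 20 to 47 RU, well above background on none of the arrays.

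Nfatc2 encodes an NFAT protein already present in resting T cells. It gave 22377 and 21400 RU for naïve, 25987 and 22345 RU for Treg, 29455 and 27808 RU for TFR, and 48784 and 45928 RU for TFH cells (chr2:168301974-168302033). The 2 TFH arrays were far above the other 6, which covered a narrow range. Nfatc2 rose by 1.11 ± 0.09 in TFH over naïve cells (2.16-fold, adjusted p = 0.000884), with 1.12 at d12 and 1.10 at d25. The difference between TFR and Treg cells was 0.25 ± 0.09 (adjusted p = 0.0766), and that between TFR and TFH cells was -0.73 ± 0.09, with TFR cells lower (adjusted p = 0.00702). The latter call was lost without either TFR array (-0.71 and -0.75, adjusted p up to 0.0699) and with the slide as a block (-0.69, adjusted p = 0.0502). A second probe of Nfatc2, 59783 bases upstream, gave 66 and 54 RU for naïve cells without being well above background, and 63 to 151 RU in the others with the highest values in TFH cells. By this probe Nfatc2 was at least 2.11-fold higher in TFH than in naïve cells (fitted difference 1.10 ± 0.22, adjusted p = 0.0141), a call lost without the naïve array of d25 (0.90, adjusted p = 0.0798).

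Rcan1, the calcineurin inhibitor, gave 600 and 646 RU for naïve, 684 and 746 RU for Treg, 1229 and 1525 RU for TFH, and 1350 and 1431 RU for TFR cells (chr16:92392763-92392822). All 4 follicular arrays were above the others, and TFH and TFR cells overlapped. Rcan1 rose by 1.14 ± 0.10 in TFH over naïve cells (2.20-fold, adjusted p = 0.00114) and by 0.96 ± 0.10 in TFR over Treg cells (1.95-fold, adjusted p = 0.003). The difference of 0.02 between TFR and TFH cells had a 95% confidence interval of -0.23 to 0.27 (adjusted p = 0.892). The rise was 1.03 at d12 and 1.24 at d25 in TFH cells and 0.98 and 0.94 in TFR cells.

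**Figure D2:**
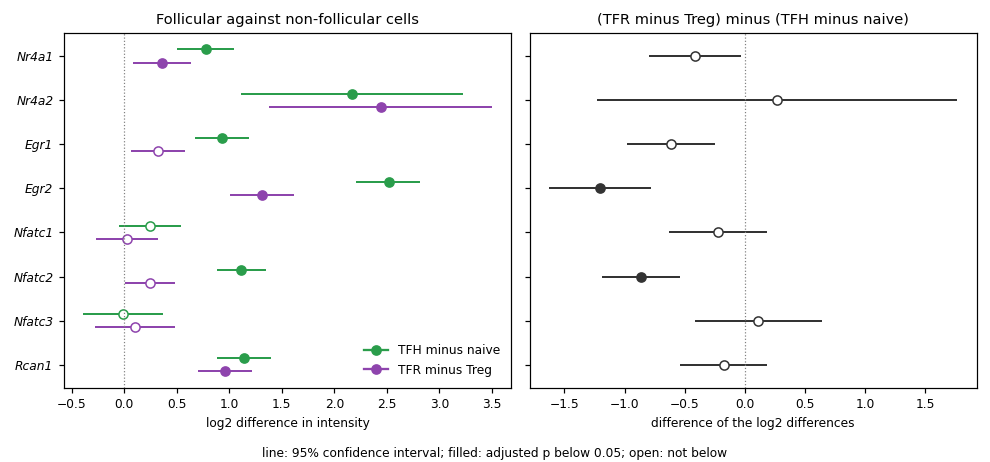
Left, log2 difference in intensity of the 8 tested genes for TFH minus naïve (green) and TFR minus Treg cells (purple); right, the difference between these differences, each with its 95% confidence interval and filled where the adjusted p is below 0.05. Egr2 at -1.20 and Nfatc2 at -0.87 are the 2 filled points on the right.

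Whether the follicular change differed between Foxp3+ and Foxp3- cells was tested by subtracting the TFH over naïve difference from the TFR over Treg difference. TFH cells were sorted as GL7+ and TFR cells as GL7+/-. Foxp3 status and the GL7 gate therefore cannot be told apart here or in any difference between TFR and TFH cells. Of the 8 genes 2 passed, both with the smaller change in TFR cells, beside 8.49% of all tested genes, 4.46% in this direction and 4.03% in the other. Egr2 differed by -1.20 ± 0.16 (adjusted p = 0.0195) and Nfatc2 by -0.87 ± 0.12 (adjusted p = 0.0223), with the same sign at d12 (-1.32 and -0.94) and d25 (-1.09 and -0.79). For Egr2 this went with a higher level in Treg than in naïve cells, whereas for Nfatc2 TFR cells stayed below TFH cells. The Egr1 difference of -0.62 ± 0.14 did not pass (adjusted p = 0.0638). For Nr4a1 it was -0.42 (adjusted p = 0.163), for Rcan1 -0.18 (adjusted p = 0.49), and for Nr4a2 0.27 with a wide interval of -1.22 to 1.76. The Egr2 call was lost without any 1 of the naïve, Treg, or TFR arrays (-1.13 to -1.28, adjusted p up to 0.108) and the Nfatc2 call without any 1 of the 8 arrays (-0.80 to -0.94, adjusted p up to 0.116).

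Among TFR and TFH cells themselves, 2 of the 8 genes passed, Nr4a1 higher in TFR cells and Nfatc2 lower, beside 22.1% of all tested genes, 11.6% higher and 10.5% lower. Between Treg and naïve cells, Nr4a1 and Egr2 passed and both were higher in Treg cells, beside 9.88% of all genes, 5.89% higher and 3.98% lower. These comparisons share arrays with those above and are not independent of them.

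**Figure D3:**
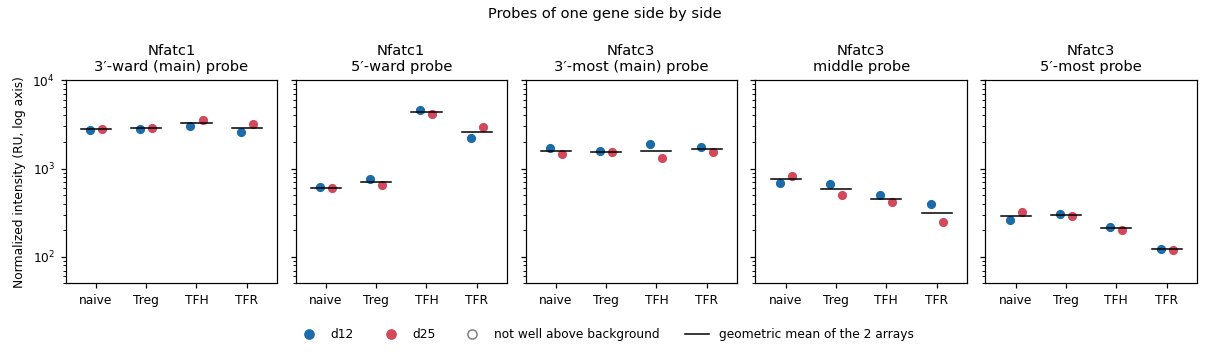
Normalized intensity (RU, log axis) of the 2 probes of Nfatc1 and the 3 probes of Nfatc3 on the 8 arrays, with 1 point per array (blue for d12, red for d25) and a bar at the geometric mean of each cell type. The upstream Nfatc1 probe lies between 595 and 759 RU in naïve and Treg cells and between 2238 and 4620 RU in follicular cells, and the 5′-most Nfatc3 probe falls to 121 and 122 RU in TFR cells.

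For Nfatc1 the answer depended on the probe. Nfatc1 encodes an NFAT protein with a short isoform, which is induced by receptor signals and ends at an upstream polyadenylation site, and with long isoforms. The main probe (chr18:80803664-80803723) lies toward the 3′ end and gave 2590 to 3538 RU on all 8 arrays, with 0.25 ± 0.11 in TFH over naïve cells (adjusted p = 0.128) and 0.02 ± 0.11 in TFR over Treg cells (adjusted p = 0.888). The other probe (chr18:80845439-80845498) lies 41775 bases upstream in the gene, and the array files list it under other RefSeq transcripts. It gave 622 and 595 RU for naïve, 759 and 652 RU for Treg, 4620 and 4111 RU for TFH, and 2238 and 2986 RU for TFR cells. On this probe every follicular array was above every other array.

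In the fit over all tested probes, the upstream Nfatc1 probe rose by 2.84 ± 0.18 in TFH over naïve cells (7.16-fold, adjusted p = 0.000558) and by 1.88 ± 0.18 in TFR over Treg cells (3.68-fold, adjusted p = 0.00284). Between TFR and TFH cells the difference for this Nfatc1 probe was -0.75 ± 0.18 (adjusted p = 0.0463, beside 9.58% of all probes called lower), a call lost without any 1 array other than the TFR array of d25 (adjusted p up to 0.15). The difference between the 2 Nfatc1 probes was tested in a fit over 4470 probe pairs of the same gene and was 2.60 ± 0.15 for TFH over naïve cells (adjusted p = 0.00366) and 1.86 ± 0.15 for TFR over Treg cells (adjusted p = 0.0113). Of all pairs, 3.02% and 2.01% were called in this direction, and 5.26% and 3.87% in the other. The first of these calls held without any 1 array. The second was lost without any 1 of the Treg or TFR arrays (1.69 to 2.02, adjusted p up to 0.105), while the rise of the upstream probe itself in TFR over Treg cells passed without any 1 of the 8 arrays (adjusted p up to 0.0274). These comparisons of probes were added after the values were seen.

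Nfatc3, which encodes an NFAT protein expressed in thymocytes and T cells, was even by its main probe, at 1307 to 1900 RU (chr8:108654316-108654375), with -0.01 ± 0.14 in TFH over naïve cells and 0.10 ± 0.14 in TFR over Treg cells (adjusted p = 0.97 and 0.616). The probe 38351 bases upstream gave 264 and 319 RU for naïve, 304 and 287 RU for Treg, 217 and 204 RU for TFH, and 122 and 121 RU for TFR cells. The values in TFR cells were the lowest at both days. By this probe Nfatc3 fell by 1.28 ± 0.12 on the log2 scale in TFR against Treg cells (adjusted p = 0.00293, beside 20.7% of all probes called lower), and this held without any 1 array. In TFH against naïve cells it was -0.47 ± 0.12 (adjusted p = 0.0351, beside 24.5% of all probes called lower), a call lost without any 1 array other than the naïve array of d12 (adjusted p up to 0.158). The Nfatc3 probe in the middle, 11053 bases upstream of the main probe, gave 676 and 505 RU for Treg and 393 and 247 RU for TFR cells, a difference of -0.91 ± 0.24 (adjusted p = 0.037) that did not pass without any 1 of the Treg, TFH, or TFR arrays (adjusted p up to 0.189). The 5′-most and the main probe differed from each other in TFR against Treg cells by -1.38 ± 0.18 (adjusted p = 0.0281), again lost without any 1 of the Treg or TFR arrays (adjusted p up to 0.167).

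Between the days, 5 of the 8 tested genes (Nr4a1, Egr1, Egr2, Nfatc1, and Rcan1) were higher at d25 than at d12 in all 4 cell types, as were 21.5% of all tested genes. Nfatc2 and Nfatc3 were lower at d25 in all 4, as were 19.7% of all genes. The log2 differences were 0.20 to 0.45 for Nr4a1, 0.15 to 0.40 for Egr1, and 0.19 to 0.52 for Egr2. These shifts cannot be told apart from those of the slides. Over the 4 cell types, the moderated F test was passed by Nr4a1, Nr4a2, Egr1, Egr2, Nfatc2, and Rcan1 and by 57.7% of all tested genes.

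For each of these 6 genes, the genes with the most similar profile were sought by Pearson's r over the 8 arrays, a description across arrays that share cell types, days, and slides. Rcan1 was most similar to Phf10 (r = 0.9977), Ggt7 (0.9976), and Nphp4 (0.9964). Egr2 was most similar to Fam214a (r = 0.9947), Elk3 (0.9941), and Plxnc1 (0.9922). Of these, Elk3 encodes a ternary complex partner of serum response factor and was also on a list used below. Nfatc2 was followed by Cdk2ap2, Popdc2, and Sult4a1 (r = 0.9931 to 0.9921), Egr1 by 1190002N15Rik, Prkrip1, and Ttpal (0.9893 to 0.9836), Nr4a2 by Acvr1, Tspan31, and Lrpap1 (0.9874 to 0.9858), and Nr4a1 by Clip2, Cd2, and Vps54 (0.9849 to 0.9843).

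**Figure D4:**
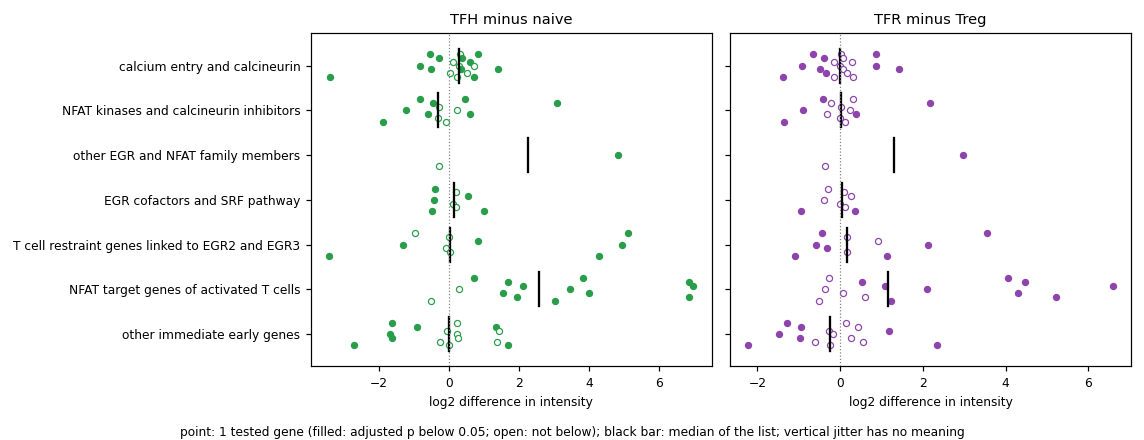
Log2 difference in intensity of the tested genes of 7 lists for TFH minus naïve (green) and TFR minus Treg cells (purple), with 1 point per gene, filled where the adjusted p is below 0.05, and a black bar at the median of the list. The NFAT target genes have medians of 2.58 and 1.15, while the other immediate early genes have medians of 0.01 and -0.24. The NFAT targets include Pdcd1, which encodes a sort marker, and 4 genes that passed the detection filter through follicular arrays alone. Without those 4 genes the medians are 2.79 and 0.91.

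The pathway around these factors was followed with 7 lists of genes. The lists were chosen with earlier results of these data known, so that their counts only describe the genes listed. Beside each count below stand the shares of all tested genes given above, 20.9% higher and 25.6% lower in TFH against naïve cells and 18.7% higher and 20.9% lower in TFR against Treg cells. Of 14 tested genes known as NFAT targets in activated T cells, 12 were higher in TFH cells than in naïve ones and none was lower (median 2.58, against -0.07 over all tested genes). In TFR over Treg cells, 9 of the 14 were higher and none was lower (median 1.15, against -0.08). Il13, Csf2, Cd40lg, and Tox2 passed the detection filter through follicular arrays alone, so that a difference was built into their selection. Without these 4 genes, 9 and 6 of the other 10 were higher (medians 2.79 and 0.91). Pdcd1 is still among these 10 and in both counts and medians. Its product was used for the sort, so that its rise, by 6.99 and 4.47 in the 2 comparisons, was built in as well. Il4 rose by 6.86 ± 0.41 in TFH over naïve cells (adjusted p = 0.000452) and by 5.21 ± 0.41 in TFR over Treg cells (adjusted p = 0.00172). Il21, the cytokine that drives B cells in the germinal center, rose by 6.85 ± 0.27 in TFH cells (adjusted p = 0.000188) and was at least 36.3-fold higher in TFR than in Treg cells, where it was not well above background (adjusted p = 0.00048). Both cytokines were far lower in TFR than in TFH cells. Il21 gave 1556 and 2386 RU for TFR and 23722 and 26344 RU for TFH cells. Il4 gave 12567 and 12554 RU for TFR and 68122 and 74904 RU for TFH cells. By RNA, the authors report substantial expression of Il4 and Il21 for TFR cells of Peyer's patches and not for those of pLN. Cells of Peyer's patches were not compared here. By protein, the authors describe Foxp3+ cells of pLN as virtually negative for IL4. The part of TFH cells carried over into the TFR sort was not tested. Of the remaining family members, Egr4 was not well above background in naïve and Treg cells, at 20 to 60 RU, and gave 927 and 514 RU for TFH and 487 and 269 RU for TFR cells. Egr4 was at least 11.8-fold higher in TFH than in naïve cells and at least 6.69-fold higher in TFR than in Treg cells. No p is given, since Egr4 entered the test only through the follicular arrays. Nfatc4 passed in neither comparison, and Nfat5 was not tested.

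Of 18 genes for calcium entry and calcineurin, TFH cells had 6 higher and 5 lower than naïve cells (median 0.3), and TFR cells had 3 higher and 6 lower than Treg cells (median 0). The largest fall was that of Ppp3ca, a catalytic subunit of calcineurin, at 11210 and 13926 RU for naïve, 898 and 1614 RU for TFH, 15214 and 15586 RU for Treg, and 5813 and 5928 RU for TFR cells. Ppp3ca fell by 3.38 ± 0.23 in TFH against naïve cells (adjusted p = 0.00061) and by 1.39 ± 0.23 in TFR against Treg cells (adjusted p = 0.0101). The Ppp3ca call in TFR against Treg cells was lost without the Treg array of d12 or the TFR array of d25 (-1.21 in both cases, adjusted p = 0.0701 and 0.0754). The calmodulin gene Calm3 rose by 1.41 ± 0.20 in TFH over naïve cells (adjusted p = 0.00494). In TFR over Treg cells Calm3 rose by 1.43 ± 0.20 (adjusted p = 0.00639), a call lost without the same 2 arrays (adjusted p = 0.0512 and 0.0568). Orai2, a subunit of the calcium channel, fell by 0.81 ± 0.08 in TFH against naïve cells (adjusted p = 0.00186).

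Of 12 tested genes for NFAT kinases and calcineurin inhibitors, TFH cells had 3 higher and 5 lower than naïve cells (median -0.3), and TFR cells had 2 higher and 3 lower than Treg cells (median 0.01). Rcan3, a relative of Rcan1, moved opposite to it. It was at 3646 to 4460 RU in naïve and Treg cells, at 965 and 1074 RU in TFH cells, and at 1753 and 1440 RU in TFR cells. It fell by 1.88 ± 0.15 (adjusted p = 0.000978) and by 1.36 ± 0.15 (adjusted p = 0.00379). Akap5, which anchors calcineurin, likewise entered the test only through follicular arrays and is counted among the higher genes. It was at least 2.92-fold higher in TFH than in naïve cells and at least 1.71-fold higher in TFR than in Treg cells. Dyrk2, a kinase that acts on NFAT, fell by 1.21 ± 0.17 in TFH against naïve cells (adjusted p = 0.00466).

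Of 8 EGR cofactors and genes of the serum response factor pathway, TFH cells had 2 higher and 3 lower than naïve cells (median 0.15), and TFR cells had 1 higher and 1 lower than Treg cells (median 0.05). Nab1, a corepressor that binds EGR proteins, rose by 1.01 ± 0.17 in TFH over naïve cells (adjusted p = 0.00845), and Elk3 rose by 0.56 ± 0.08 (adjusted p = 0.00539). Of 10 T cell restraint genes linked to EGR2 and EGR3, TFH cells had 4 higher and 2 lower than naïve cells (median 0.03), and TFR cells had 3 higher and 4 lower than Treg cells (median 0.17). Lag3, an inhibitory receptor, rose by 5.12 ± 0.48 in TFH over naïve cells (adjusted p = 0.00146) and by 3.55 ± 0.48 in TFR over Treg cells (adjusted p = 0.00605). Rnf128, the ubiquitin ligase GRAIL, rose by 4.96 ± 0.41 in TFH over naïve cells (adjusted p = 0.00103). Nrp1 was at least 16.5-fold higher in TFH than in naïve cells (adjusted p = 0.000336). In the opposite direction, Ndrg1, a factor of T cell anergy, fell by 3.41 ± 0.11 (adjusted p = 0.000159) and Dgka, a kinase that removes diacylglycerol, by 1.31 ± 0.17 (adjusted p = 0.00418) in TFH against naïve cells.

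Other immediate early genes can also be induced while tissue is taken apart and cells are sorted. Of 15 tested, 2 were higher and 5 lower in TFH cells against naïve cells, and 2 were higher and 5 lower in TFR cells against Treg cells. The higher genes include Ier3 in both comparisons, which passed the detection filter through follicular arrays alone. Dusp1, a MAP kinase phosphatase, rose by 1.70 ± 0.13 (adjusted p = 0.000884) and by 1.18 ± 0.13 (adjusted p = 0.00384). Ier2 fell by 1.67 ± 0.11 in TFH against naïve cells (adjusted p = 0.000537), and Klf6 fell by 1.48 ± 0.16 in TFR against Treg cells (adjusted p = 0.00375). Jun was called lower in TFH against naïve cells, at 364 and 263 RU against 953 and 945 RU. It was also called lower in TFR against Treg cells, at 335 and 179 RU against 1723 and 753 RU. Of 19 settings, the first Jun call was lost in 2 and the second in 1. Myc fell by 2.69 ± 0.20 in TFH against naïve cells (adjusted p = 0.000791). Between TFR and TFH cells, 7 of the 15 immediate early genes were higher in TFR cells and 2 lower (median 0.43). Of all tested genes, 11.6% were higher and 10.5% lower in that comparison (median -0.03). The summed level of 17 such genes was 166359 and 167107 RU in TFH cells, 178282 and 188873 RU in naïve cells, 204882 and 215548 RU in TFR cells, and 239759 and 222560 RU in Treg cells. Jund and Nfkbia were the largest terms of this sum on every array, for example 74835 and 49915 RU for the TFH array of d12. The sum therefore says little about the dimmer genes. Fos rose from 123 RU (naïve) to 748 RU (TFH) on the d12 arrays, against 315 and 381 RU on those of d25. For Fosb the values were 227 and 1202 RU, against 230 and 295 RU. The part of sample handling in the levels of Nr4a1, Egr1, and Egr2 was not tested.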

How the data were processed

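Spot intensities were extracted by the authors with Agilent Feature Extraction 10.7.3.1, and the authors also deposited a table of normalized intensities (geometric mean of the spots of a probe, quantile normalization, 75th percentile set to 1500, floor of 20). These steps were repeated from the deposited spots, without those flagged as outliers, outside the interquartile range limit used by the study, or uneven over their pixels, which kept 86.45% to 89.18% of them. The resulting log2 intensities correlated with those of the table deposited by the authors (r = 0.9994 on each array). Differences were fitted with limma 3.58.1 in R 4.3.3 (lmFit, eBayes, a term each for cell type and day, prior degrees of freedom 1.89), adjusted over all tested genes (Benjamini-Hochberg), and called at an adjusted p below 0.05. The procedure was run on simulated data with independent noise and without effects of day, slide, or floor. That run cannot show how the fit behaves where such effects are present.

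The members and lists were chosen with earlier results of these data known. All members are named, and list genes were named among the 3 with the largest called rise or fall per list and follicular comparison. Contrasts of Treg with TFH cells and of probes, and their runs with each array left out, were added after the values were seen. The alternatives were another scaling, background correction, floor, spot or gene filter, the deposited table, other model terms, the other probes or their mean, and each array left out. Where a gene was below the detection flag on both arrays of 1 side, the fold is an approximate lower bound. It rests on the lowest detected probe of each array, 68.2 RU for naïve cells at d12. On that array Cd40lg missed the flag at 100 RU. Probe positions are those of the array files (build NCBI37), and their place in exons or UTRs was not analysed here.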

Additional observations from a re-analysis of the deposited data

Results flagged for a closer look

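The change from Treg to TFR cells differed from that from naïve CD4 T to TFH cells, in the test of the difference itself, for Egr2 (-1.20 on the log2 scale) and for Nfatc2 (-0.87). Egr2 rose by 2.52 in TFH cells and by 1.31 in TFR cells. Nfatc2 rose by 1.11 in TFH cells, and its difference of 0.25 in TFR cells did not pass. Of 19 settings, the call of the difference between the changes was lost in 8 for Egr2 and in 10 for Nfatc2. With 2 arrays per cell type, no group was large enough to test for an outlying array.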

How the results depend on the processing

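Of 16 calls of the 8 tested genes in 5 comparisons, 7 passed under each of 19 settings run and 0 changed direction. These 7 were Nr4a1, Egr1, Egr2, Nfatc2, and Rcan1 in TFH over naïve cells and Egr2 and Rcan1 in TFR over Treg cells. Of 59 calls of list genes, 32 passed in each setting run for them and 0 changed direction. The number of the 8 genes called in TFR against Treg cells was 4, with 2 to 6 over the other processing settings, 2 without a filter on dim probes and 6 with the mean of all probes or an intensity trend of the variance. In TFH against naïve cells it was 6, with 5 to 7. In TFR against TFH cells it was 2, with 4 under normexp background correction and under an intensity trend of the variance, 1 with scaling alone, without the day term, or without a filter, and 0 with the slide as a block. In Treg against naïve cells it was 2, with 0 without the day term and 1 with the slide or without a filter. For the difference of the follicular changes it was 2, with 1 without the day term, with the slide, without a filter, or with the mean of all probes, and 3 with an intensity trend of the variance. With each array left out, these counts ran from 2 to 4, 0 to 2, 0 to 2, and 0 to 1, and that of TFH against naïve cells from 5 to 6. The causes were not tested.

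Values that changed sign were not called as reported. Nfatc3 in TFR over Treg cells, 0.098 by its main probe, became a called fall with the mean of all probes and by both other probes (adjusted p = 0.0137, 0.00293, and 0.037), as did its TFR over TFH difference by the 5′-most probe (adjusted p = 0.0155). Nfatc3 in TFH over naïve cells was 0.012 with normexp, 0.003 with the deposited table, and 0.010 with no spot excluded, and -0.203 to 0.186 with each array left out. Nfatc3 in TFR over Treg cells was -0.697 with the mean of all probes and -1.281 and -0.909 by its other probes, and -0.049 to 0.246 with each array left out. Nfatc3 in TFR over TFH cells was -0.067 with the slide as a block, -0.424 with the mean of all probes, -0.791 and -0.556 by its other probes, and -0.119 to 0.270 with each array left out. In Treg over naïve cells it was 0.025 by 1 other Nfatc3 probe and -0.179 to 0.117 with each array left out. The difference of the follicular changes of Nfatc3 was -0.298 with the mean of all probes, -0.816 and -0.185 by its other probes, and -0.088 to 0.301 with each array left out. That of Nr4a2 was -0.441 with the mean of all probes, -1.152 by its other probe, and -0.357 to 0.896 with each array left out. With each array left out, Nfatc1 ran from -0.091 to 0.137 in TFR over Treg cells and from -0.046 to 0.113 in Treg over naïve cells, and Rcan1 from -0.081 to 0.126 in TFR over TFH cells.

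No paired analysis was possible beyond the day term, because each cell type has 1 array per day and the day already enters the fit as a block. Without the day term, Egr2 lost its call in Treg over naïve cells (adjusted p = 0.14) and in the difference of the follicular changes (adjusted p = 0.168), and Nr4a1 lost its calls in TFR over Treg, TFR over TFH, and Treg over naïve cells (adjusted p = 0.268, 0.205, and 0.073). Signal near background limits Nr4a3, Egr3, and the naïve level of Nr4a2.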
